A study of Homo sapiens with 4 samples.

Results

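The genes described here are 6 human epithelial keratins, KRT8, KRT18, KRT19, KRT20, KRT80 and KRT10, chosen by name and found by their Ensembl identifiers among the 20263 genes of the count table. They were measured by mRNA sequencing in HCT116, an established human colorectal carcinoma line that grows as epithelial cells. Cells were incubated for 24 h with 7A, a derivative of the kinase inhibitor neratinib according to the title, or with the solvent DMSO, and 2 libraries were made per group. No dose of 7A is stated, all 4 libraries come from 1 cell line with no gene altered by design, and nothing states that the replicates were separate cultures. The study asked how 7A acts on colon cancer cells; the title names apoptosis and the p53 pathway.

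Keratins are the intermediate filament proteins of epithelial cells. A filament is built from pairs of 1 type I and 1 type II keratin, so neither type makes filaments alone, and an unpaired keratin is degraded. The pair of KRT8 (type II) and KRT18 (type I) forms the network of simple epithelia such as the gut lining, where KRT19 and KRT20 are further type I partners. In dying epithelial cells KRT18 is cut by caspases, and the cut fragment is used as a marker of apoptosis.

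All 6 keratins were higher with 7A, and in each of them both 7A libraries lay above both DMSO libraries. Fold changes ran from 0.47 (KRT19) to 3.01 (KRT20) on the log2 scale, with a median of 1.05, against a median of -0.03 over all 14026 genes tested. A gene was said to rise or fall when its adjusted p from edgeR, corrected over all tested genes, was under 0.05. All 6 rose by that rule, in a comparison in which 48.4% of tested genes changed, 23.9% rising and 24.6% falling, and in which 38.2% of tested genes had both 7A libraries above both DMSO libraries. The 6 genes were chosen with earlier results of these data known, so their count and median beside these shares are a description. Scaling by library totals alone gave 1951 genes higher and 4934 lower in place of 3349 and 3446. In bulk RNA, more cells making a keratin and more of its RNA per cell cannot be told apart. KRT20 had too few DMSO counts to enter the test through that group and so had to differ, and its call and its part in the median are a description; 5 of the 6 genes passed the filter on low counts in both groups. The exact permutation p of 2 against 2 libraries cannot go below 0.333, so each call rests on the spread that edgeR shares across genes.

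**Figure D1:**
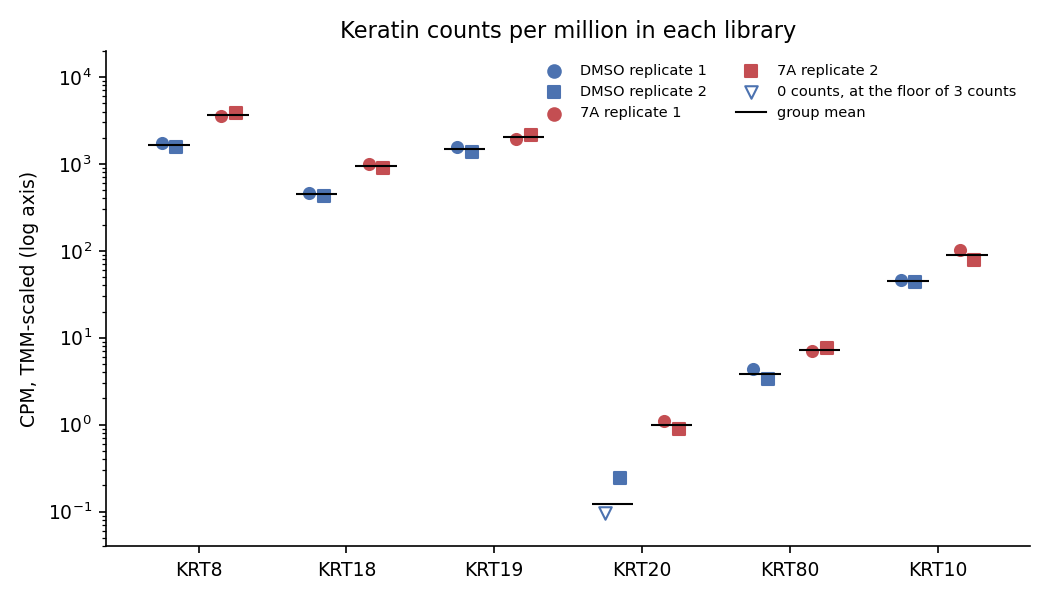
Count per 1000000 (CPM, scaled by TMM, log axis) of the 6 keratins in each library, with circles for replicate 1, squares for replicate 2 and lines for group means. In all 6 genes both 7A libraries lie above both DMSO libraries. The open triangle is the DMSO library with 0 KRT20 counts, drawn at the floor of 3 counts over the library total, without TMM.

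The library totals were 31120459 and 29769568 counts in the DMSO group, and 49924044 and 61605005 in the 7A group, replicate 1 first here and in all values below. A gene with no count may still have had an expectation of 3 counts (95% limit, counting error only). That is 0.0487 to 0.101 CPM in these libraries, computed on library totals without the TMM scaling of the other CPM values. The epithelial identity of the line was visible in all 8 epithelial markers looked for, among them EPCAM (247 and 227 CPM with DMSO, 372 and 335 CPM with 7A) and CDH1 (76.8, 67.7, 58.8 and 64.1 CPM in the same order). CLDN4, a tight junction gene of that list, read 409 and 21.8 CPM in the 2 DMSO libraries, against 892 and 905 CPM in the 7A libraries, and did not pass (edgeR adjusted p = 0.416). Summed over the 8 markers, the level was 1238 and 795 CPM with DMSO and 1892 and 1907 CPM with 7A. Most of the difference between the groups, and between the DMSO libraries, came from CLDN4. What part the summed level has in the keratin results was not tested. Most markers of other cells were at or near 0: DCN, LUM and COL1A2 of fibroblasts had no count in any library, PTPRC of leukocytes at most 2 and PECAM1 of endothelium at most 3, although the fibroblast gene COL1A1 read 33.7 to 57.6 CPM and the leukocyte gene ITGAM had 27 to 53 counts.

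KRT8 (ENSG00000170421, chromosome 12, 52897187 to 52949954 on GRCh38, as for all genes below, minus strand), the main type II keratin of simple epithelia, read 1751 and 1568 CPM in the DMSO libraries, against 3526 and 3810 CPM in the 7A libraries. Both 7A libraries held more than any DMSO library, and replicates of a group lay close together. The rise was 1.14 ± 0.14 on the log2 scale (± is the standard error; 2.21-fold, edgeR adjusted p = 0.0013, n = 2 libraries per group). Its type I partner KRT18 (ENSG00000111057, chromosome 12, 52948871 to 52952901, plus strand) lies beside it and is the only type I keratin gene of the type II cluster. KRT18 read 458 and 432 CPM with DMSO, and 990 and 901 CPM with 7A. It rose by 1.09 ± 0.13 (2.12-fold, edgeR adjusted p = 0.00105). The partners thus rose by nearly the same factor in this fit, and each kept its call under every alternative that was run. Their closeness depended on processing. With a correction for transcript length KRT8 rose by 1.38 and KRT18 by 1.05, and with GC content and length by 1.185 and 0.927.

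The separation of these counts has limits. The annotated exons of KRT8 and KRT18 share 525 bases on opposite strands, which is 7.6% of the exon bases of KRT8 and 16.3% of those of KRT18, and the sources used here do not say whether strand was used in counting. GENCODE 29 names 50 pseudogenes after KRT8, 68 after KRT18 and 5 after KRT19, none of which is in the count table, so the share of reads that the counter gave to copies is unknown for these 3 genes.

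KRT19 (ENSG00000171345, chromosome 17, 41523617 to 41528308), a small type I keratin without the usual tail domain that is widespread in simple and glandular epithelia, moved least. It read 1573 and 1359 CPM with DMSO and 1946 and 2121 CPM with 7A. The gap between the groups was small beside that of KRT8, but the groups did not overlap. The rise of 0.47 ± 0.14 (1.39-fold, edgeR adjusted p = 0.0286) was exceeded by 25.7% of all tested genes, against 5.34% for KRT8 and 6.22% for KRT18. This call depended on processing: the value was 0.20 (edgeR adjusted p = 0.235) when libraries were scaled by their totals alone and 0.19 (edgeR adjusted p = 0.167) with a correction for GC content and transcript length, and it was also lost without DMSO replicate 1 (edgeR adjusted p = 0.0537), DMSO replicate 2 (0.184) or 7A replicate 2 (0.0997).

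KRT20 (ENSG00000171431, chromosome 17, 40875941 to 40885227), a type I keratin of mature enterocytes and goblet cells that is used in pathology to mark colorectal origin, was barely detected. It had 0 and 8 counts in the DMSO libraries, against 51 and 49 in the 7A libraries, which is 0, 0.245, 1.10 and 0.887 CPM. Both 7A libraries were above the better DMSO library, but the DMSO libraries also differed from each other. Summed over libraries and scaled, the ratio of 7A to DMSO was 8.23, with an exact 95% counting interval of 4.02 to 19.6. Such intervals take counts as independent and are too narrow where both mates of a read pair were counted. The fitted rise was 3.01 ± 0.92 (edgeR adjusted p = 0.0389). It was not called without 7A replicate 1 (edgeR adjusted p = 0.163) or 7A replicate 2 (0.144), nor with library totals alone (0.0556), and it was 2.02 without DMSO replicate 1. KRT20 was thus at a trace level in both groups.

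KRT80 (ENSG00000167767, chromosome 12, 52168996 to 52192000), a type II keratin found in many epithelia and linked to their differentiation, was also low. It read 4.40 and 3.31 CPM with DMSO (150 and 108 counts), and 6.94 and 7.58 CPM with 7A (321 and 419 counts). The 7A libraries were both higher. The rise was 0.91 ± 0.22 (1.88-fold, edgeR adjusted p = 0.0128), and the call was lost without DMSO replicate 2 (edgeR adjusted p = 0.0881) or 7A replicate 2 (0.0653).

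KRT10 (ENSG00000186395, chromosome 17, 40818117 to 40822595), a type I keratin best known from the upper layers of the epidermis, read 45.8 and 43.2 CPM with DMSO and 102 and 78.1 CPM with 7A. The 7A libraries were further apart than the DMSO libraries, and the groups did not overlap. The rise was 1.02 ± 0.17 (2.02-fold, edgeR adjusted p = 0.00294), called under every alternative that was run. KRT1 and KRT2, the type II keratins that pair with KRT10 in skin, had 0, 2, 0 and 0 counts and no count in any library. The exons of KRT10 share 56 bases with a gene on the opposite strand, ENSG00000167920, which GENCODE 29 calls TMEM99 and lists as protein-coding and the table of gene names calls KRT10-AS1. KRT10-AS1 read 13.2 and 14.2 CPM in DMSO cells against 21.3 and 17.1 in 7A cells, and did not pass (0.49 ± 0.18, edgeR adjusted p = 0.0542).

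The promoter windows of KRT10 and KRT20 are shown because both type I genes lie in the keratin cluster of chromosome 17, both rose, and their levels differ widely. Each window is 300 bases from RefSeq on GRCh38.p14, on the minus strand, with 250 bases before the transcription start and 50 from it on. Capitals mark matches on either strand to the TATA box, searched as TATAAA. They also mark the core of the motif of the intestinal CDX factors, searched as TTTATG. The motif core of GATA factors is marked likewise and was searched as TGATAA; none of the marked matches overlap.
KRT10, chr17:40822565-40822864: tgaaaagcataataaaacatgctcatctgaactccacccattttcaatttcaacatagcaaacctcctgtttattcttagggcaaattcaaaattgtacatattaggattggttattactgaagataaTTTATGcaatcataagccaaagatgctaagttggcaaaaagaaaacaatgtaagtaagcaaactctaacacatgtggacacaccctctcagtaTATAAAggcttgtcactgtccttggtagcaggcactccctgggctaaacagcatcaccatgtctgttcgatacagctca
KRT20, chr17:40885193-40885492: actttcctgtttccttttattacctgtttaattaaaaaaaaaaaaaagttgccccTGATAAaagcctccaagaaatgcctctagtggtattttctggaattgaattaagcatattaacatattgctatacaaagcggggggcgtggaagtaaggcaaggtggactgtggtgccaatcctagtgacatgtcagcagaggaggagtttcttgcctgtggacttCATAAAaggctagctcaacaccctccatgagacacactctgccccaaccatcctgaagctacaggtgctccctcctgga
A TATAAA begins 29 bases before the start of KRT10, and at the same place, 29 bases before the start, KRT20 has CATAAA, which is TTTATG on the other strand. KRT10 also has TTTATG 122 bases before its start, and KRT20 has TGATAA 195 bases before its start. The AP-1 motif TGANTCA is in neither window. Among 35116 RefSeq windows of this length, 11.5% hold TATAAA, 10.6% TTTATG, 7.53% TGATAA and 7.71% TGANTCA on either strand. For KRT8 the table holds a window at a start at position 52926469 of chromosome 12, the start of a longer transcript, and it is not shown. KRT18, KRT19 and KRT80 have no entry in the table.

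Levels of different keratins can be compared per length, as CPM per kilobase of the longest principal transcript (RPKM). In DMSO cells KRT19 stood highest at 1055 ± 109 RPKM (SD, n = 2), followed by KRT8 at 781 ± 61.0 and KRT18 at 285 ± 11.7. KRT10 followed at 21.0 ± 0.85, KRT80 at 0.998 ± 0.20, and KRT20 at 0 and 0.141 in the 2 libraries. With 7A the order of the leading pair was exchanged: KRT8 stood at 1725 ± 94.3 RPKM, KRT19 at 1463 ± 89.0 and KRT18 at 605 ± 40.4, followed by KRT10 at 42.4 ± 8.0, KRT80 at 1.88 ± 0.12 and KRT20 at 0.573 ± 0.088. No neighbours in either order had overlapping libraries. The order of KRT19 and KRT8 depends on the length used, since KRT8 has 2126 bases in its principal transcript and 6881 in its merged exons.

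The make-up of the keratin mRNA shifted from KRT19 towards KRT8. Per length, the ratio of KRT19 to KRT8 was 1.37 and 1.33 in the DMSO libraries and 0.844 and 0.852 in the 7A libraries. With merged exon lengths the same ratio was 2.65 and 2.55 against 1.63 and 1.64, so the drop was there with either length but the crossing of 1 was not. The ratio of KRT18 to KRT8 was 0.356 and 0.375 with DMSO and 0.382 and 0.322 with 7A, and here the groups overlapped. The type I members summed to 1447 and 1275 RPKM with DMSO and 2082 and 2140 with 7A, and the type II members to 825 and 738, and 1661 and 1794. The type I to type II ratio was 1.74 ± 0.01 (SD, n = 2) with DMSO and 1.22 ± 0.04 with 7A. KRT8 alone made nearly all of the type II sum (823.8 and 737.5 RPKM with DMSO, 1659 and 1792 with 7A). This ratio thus largely repeats the drop of KRT19 against KRT8, and it leaves out keratins that are not members, such as KRT15. These ratios are mRNA levels per length, and 2 against 2 libraries allow no exact test to pass.

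**Figure D2:**
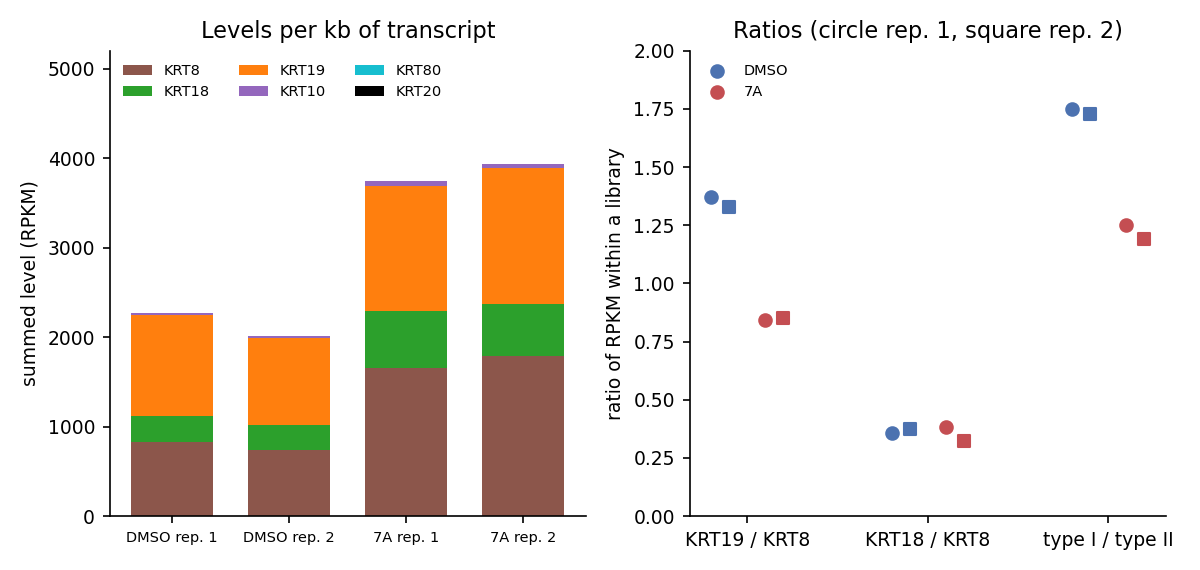
Left, levels of the 6 keratins stacked in each library (RPKM on the principal transcript). Right, ratios of RPKM within each library. KRT19 over KRT8 and type I over type II are lower in both 7A libraries, while KRT18 over KRT8 overlaps between the groups.

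Of 49 other human keratin genes in the table, 14 had enough counts to be tested. By edgeR 11 of these rose, where 23.9% of all tested genes rose, and none fell; none was lower at an unadjusted p under 0.05, with DESeq2 or with limma-voom. The count is no measure of the family, since KRT6A, KRT6B, KRT14 and KRT34 entered the test through their 7A libraries only and so had to differ. The other 35 keratins had at most 10 counts in any library, and 22 of them had none in all 4. Summed over the 14, the level was 60.0 and 55.8 CPM in DMSO cells against 112 and 130 in 7A cells, most of it from KRT15.

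KRT15, a type I keratin of basal cells in stratified epithelia and hair follicles, read 44.5 and 42.1 CPM in DMSO cells against 67.5 and 87.1 in 7A cells, and rose by 0.84 ± 0.16 (edgeR adjusted p = 0.00575). KRT7, a type II keratin of glandular and ductal epithelia, rose from 1.93 and 1.93 to 6.51 and 7.02 CPM (1.81 ± 0.21, edgeR adjusted p = 0.00105). KRT13, a type I keratin of moist stratified epithelia such as the mouth lining, rose from 0.616 and 0.612 to 3.20 and 3.44 CPM (2.43 ± 0.27). These 3 genes were above the floor of 3 counts in every library.

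The keratins that skin makes on wounding or stress were among them. KRT6A had 0 and 2 counts with DMSO and 217 and 199 with 7A; the scaled ratio was 137, with an exact 95% counting interval of 37.7 to 1130. KRT6B had 7 and 2 counts against 57 and 79. KRT6A and KRT6B entered the test through the 7A group only, so these differences are a description. Their type I partners KRT16 and KRT17 read 1.06 and 0.612 CPM, and 0.997 and 1.01 CPM, with DMSO. With 7A they read 2.16 and 2.61 CPM, and 3.63 and 3.58 CPM, rising by 1.51 ± 0.35 and 1.84 ± 0.25. KRT6A, KRT6B and KRT6C are near-identical copies, as KRT14, KRT16 and KRT17 are close ones, so the split of reads within each set is uncertain.

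The basal pair of KRT14 and KRT5 was unequal. KRT14 had 9 and 5 counts in DMSO cells against 123 and 126 in 7A cells (3.54 ± 0.39, edgeR adjusted p = 0.000988). As KRT14 entered the test through the 7A group only, it had to be higher and its call is a description. KRT5, its type II partner, had 0 and 0 counts against 5 and 10, and was too low to test. Hair keratins also appeared: KRT81 rose from 0.469 and 0.459 to 5.30 and 4.22 CPM (3.35 ± 0.28, edgeR adjusted p = 0.00067), while its near-copy KRT86 read 1.23 and 0.704 against 1.15 and 1.32 CPM (0.35 ± 0.38, edgeR adjusted p = 0.468). Of the skin markers looked for, KRT2 and DCD had no count in any library, KRT1 at most 2 and KRT9 at most 4.

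**Figure D3:**
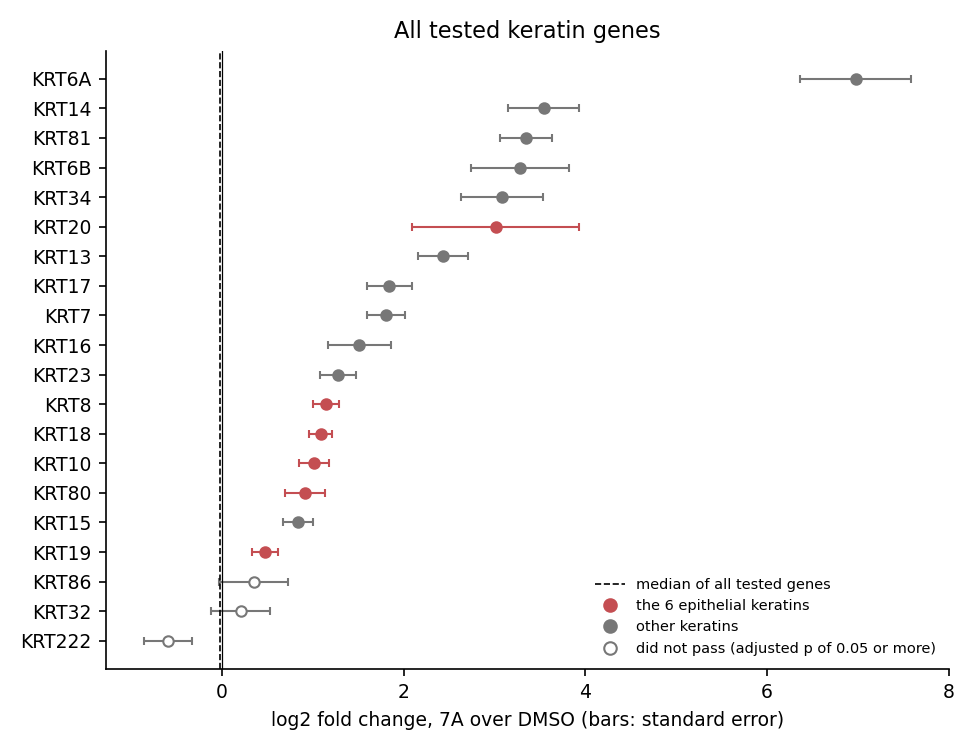
Log2 fold change (7A over DMSO) and standard error for the 20 tested keratin genes, the 6 epithelial keratins in red and the others in grey. Filled points passed an edgeR adjusted p of 0.05; 17 of the 20 did, where 23.9% of all tested genes rose, but KRT20, KRT6A, KRT6B, KRT14 and KRT34 entered the test through the 7A group only and could lie only to the right of 0. KRT222, KRT32 and KRT86 (open) did not pass.

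Genes that anchor or arrange keratin filaments did not share one direction. Of 21 listed, 20 were tested: 7 rose, 6 fell and 7 did not pass, with a median of 0.17. Over all tested genes, 23.9% rose and 24.6% fell, so a mix of directions is common in this comparison. FAM83H, a scaffold that recruits casein kinase to keratin filaments, rose by 1.46 ± 0.13 (51.0 to 140 CPM, edgeR adjusted p = 0.000692). The hemidesmosome genes listed went both ways. COL17A1 and ITGB4 rose by 1.42 ± 0.22 and 0.68 ± 0.13, while ITGA6 was lower without passing (-0.31 ± 0.13, edgeR adjusted p = 0.0831). In contrast, the large linker EPPK1 (epiplakin) fell by 1.51 ± 0.13 (95.3 to 33.3 CPM, edgeR adjusted p = 0.000692), or by 0.83 with the length correction. DST, which has a hemidesmosome form, fell by 1.33 (91.3 and 159 CPM with DMSO, 49.5 and 49.8 with 7A). PPL (periplakin) fell by 1.21 (168 and 304 CPM against 97.7 and 107). DSP (desmoplakin), which ties keratin to desmosomes, fell by 0.95 ± 0.18 (180 and 257 CPM against 115 and 112). Other desmosome genes of the list were mixed: JUP, DSC3 and PKP3 rose by 0.70 ± 0.15, 0.67 ± 0.18 and 0.58 ± 0.13. DSG2 and PKP4 fell (-0.50 ± 0.16 and -0.52 ± 0.15), and PKP2 and DSC2 did not pass. The DMSO libraries of DST, PPL and DSP lay far apart, and the length correction left 2 members lower, EPPK1 among them. PLEC (plectin), another keratin linker, read 1692 and 2172 CPM in the group means and did not pass (0.36 ± 0.14, edgeR adjusted p = 0.0627). Correcting for GC and length gave 11 members higher and 2 lower. ITGB4 was not called without DMSO replicate 2 (edgeR adjusted p = 0.0501), when 2 members in all were higher, and the number lower was 1 without 7A replicate 2 and 3 without 7A replicate 1.

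Proteins that bind or modify KRT8 and KRT18 were split as well. Of 24 listed, 23 were tested: 7 rose, 5 fell and 11 did not pass, with a median of 0.16. These counts are near the shares over all tested genes, 23.9% rising and 24.6% falling, and are a description. The chaperones HSPB1 and HSPA8 rose by 1.53 ± 0.18 (304 to 877 CPM, edgeR adjusted p = 0.00122) and 1.27 ± 0.15 (1175 to 2831 CPM). SFN, the 14-3-3 protein of epithelial cells, rose by 1.11 ± 0.16 (247 to 535 CPM). Of the other 14-3-3 genes listed, YWHAE and YWHAH rose by 0.66 ± 0.15 and 0.50 ± 0.12. YWHAG, YWHAQ and YWHAZ were higher without passing. Only YWHAB fell, by 0.78 ± 0.13, a call lost (edgeR adjusted p = 0.141) when GC content and length were corrected for. CASP6, a caspase that cuts KRT18, read 7.55 and 7.53 CPM in the group means and did not pass (edgeR adjusted p = 0.988). With library totals alone 3 of the list were higher and 9 lower; 4 were higher without DMSO replicate 1, 4 higher and 2 lower without DMSO replicate 2, and 3 lower without 7A replicate 2.

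Of 24 listed transcription factors that act on epithelial keratin genes, 21 were tested: 10 rose, 4 fell and 7 did not pass. Their median was 0.25, and 23.9% of all tested genes rose and 24.6% fell. AP-1 is a dimer of JUN and FOS proteins, and FOSL1 rose by 2.32 ± 0.20 (126 to 626 CPM, edgeR adjusted p = 0.00084), JUN by 1.69 ± 0.15 (134 to 431 CPM), FOSB by 1.56, JUNB by 1.18, FOS by 1.11 and JUND by 0.86, whereas FOSL2 fell by 0.57 ± 0.13. CEBPB, a factor of stress and differentiation, rose by 1.17 ± 0.12 (90.3 to 203 CPM). The grainyhead genes GRHL1 and GRHL2, which sustain the epithelial state, fell by 1.06 ± 0.16 and 0.73 ± 0.22, and GRHL3 did not pass (-0.76 ± 0.41, edgeR adjusted p = 0.162). CDX2, an intestinal master factor that acts on gut keratins, did not pass (12.5 and 9.88 CPM in the group means, -0.34 ± 0.18, edgeR adjusted p = 0.147). With library totals alone the list had 7 lower; without DMSO replicate 1 or DMSO replicate 2 it had 1 lower, GRHL1, so that FOSL2 and GRHL2 lost their calls, and without 7A replicate 1 it had 2.

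Of 16 other intermediate filament genes listed, 10 were tested: 3 rose, 3 fell and 4 did not pass, with a median of 0.000898. Shares over all tested genes were 23.9% rising and 24.6% falling. All 3 that rose encode nuclear lamins, LMNB2 by 0.87 ± 0.12 (383 to 702 CPM, edgeR adjusted p = 0.00166), LMNA by 0.75 ± 0.16 (871 to 1468 CPM) and LMNB1 by 0.52 ± 0.15. SYNM (synemin) and the lens filament gene BFSP1 fell by 0.79 ± 0.17 and 0.69 ± 0.17. SYNC (syncoilin), a filament protein of muscle, fell by 1.26 ± 0.35 (1.36 to 0.567 CPM, edgeR adjusted p = 0.0217). VIM (vimentin), the filament of mesenchymal cells, read 29.4 and 32.9 CPM in the group means and did not pass (0.16 ± 0.15, edgeR adjusted p = 0.409). LMNA lost its call without DMSO replicate 2 (edgeR adjusted p = 0.0583) or 7A replicate 2 (0.0586), and BFSP1 without DMSO replicate 1 (0.05004), DMSO replicate 2 (0.0878) or 7A replicate 1 (0.0613).

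Most genes of intestinal differentiation, the setting in which KRT20 is usually made, were too low to test. Of 22 listed, 4 were tested: none rose and DPP4, a brush border peptidase, fell by 0.85 ± 0.17 (18.6 to 10.3 CPM, edgeR adjusted p = 0.00675), a call lost without DMSO replicate 2 (0.0562). Among all tested genes 23.9% rose and 24.6% fell. At an unadjusted p under 0.05 there was 1 of the list higher, and DESeq2 and limma-voom called none of the list higher. That gene, CEACAM1, an adhesion molecule, had an edgeR adjusted p of 0.0524 and was called higher in 5 alternatives, with 0.0181 when GC content and length were corrected for. ANPEP, another brush border peptidase, read 0.567 and 0.459 CPM in the group means and did not pass (-0.30 ± 0.44). CA2, a carbonic anhydrase gene, read 18.5 and 19.1 CPM and did not pass (0.04 ± 0.15).

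The genes nearest to each keratin in pattern were sought among 12652 other genes averaging 1 CPM or more, by the distance between log2 CPM centred on each gene's own mean over the 4 libraries. Nearest to KRT8 were YBX3, a cold shock domain protein gene (distance 0.0202; 236, 210, 467 and 507 CPM), and TOMM22, a mitochondrial import receptor gene (0.0227). KRT18 was nearest to PSMG3, a proteasome assembly gene (0.0229; 38.1, 35.4, 81.1 and 73.2 CPM), and TMA7 (0.028). KRT19 was nearest to the chromatin remodelling gene SMARCD2 (0.0179; 200, 173, 247 and 273 CPM) and to ZNF747 (0.0305). KRT80 was nearest to JDP2, a factor of the AP-1 group (0.0413; 10.4, 8.05, 17.1 and 18.2 CPM), and KHDC1L (0.0476), and KRT10 to RMI2, a genome stability gene (0.0216), and JPT1 (0.0591). KRT20 had no near neighbour, with BUB1B-PAK6 at 0.302 and JMJD7-PLA2G4B at 1.05. Between the members themselves the distance was 0.193 for KRT8 and KRT18, 0.195 for KRT18 and KRT10, and 0.672 for KRT8 and KRT19. With 4 libraries in 2 groups, many genes are close to any gene that rose, and these distances are a description.

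**Figure D4:**
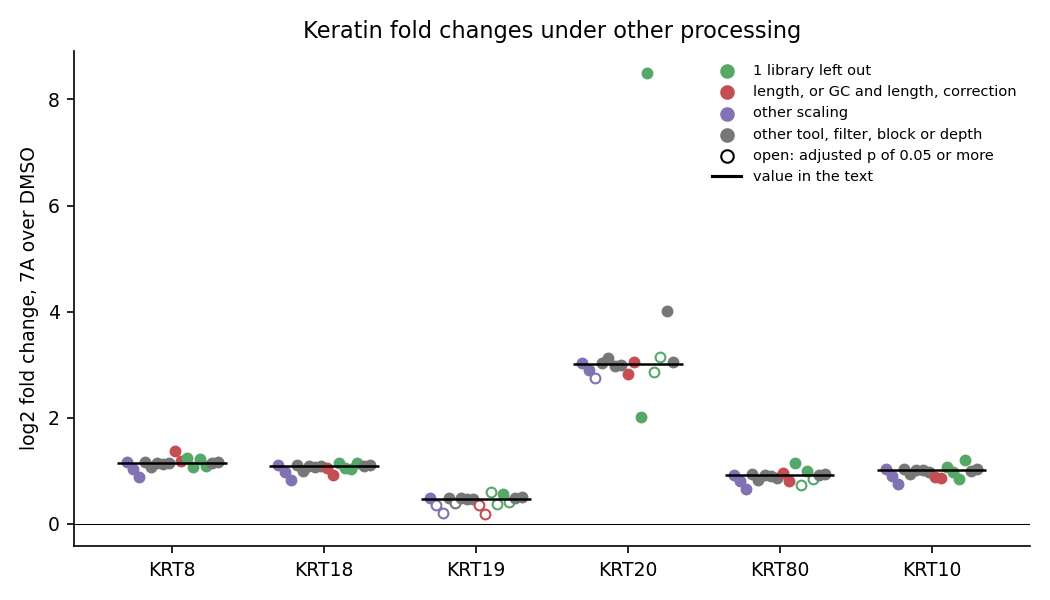
Log2 fold changes of the 6 keratins under each alternative way of processing, with a line at the value given in the text. All points lie above 0; open points, where the edgeR, DESeq2 or limma-voom adjusted p is 0.05 or more, occur for KRT19, KRT20 and KRT80 only, and the highest KRT20 point leaves out DMSO replicate 2.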

How the data were processed

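The authors deposited 1 table of unnormalized counts for the 4 HCT116 libraries, a unit read from its whole numbers and unequal totals. Human (hg38) and mouse (mm10, GRCm38) builds appear in the submitters' processing notes, and all identifiers are human. Not given in the sources used here: aligner, counter, annotation and strand setting. Among genes with 1 to 20 counts, 63.9% to 64.9% were even, as when both mates of a pair are counted. Symbols come from a table of gene identifiers and names, and coordinates and lengths from GENCODE 29 (GRCh38); 20224 of 20263 identifiers had both.

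Counts were fitted with edgeR 4.0.16 in R 4.3.3 (filterByExpr with a minimum count of 10, TMM, robust quasi-likelihood F test, Benjamini-Hochberg over 14026 genes, threshold 0.05). The filter asked for 0.247 CPM in 2 libraries. CPM, RPKM and ratios were computed from the deposited counts, and the standard error is the fold change over the square root of F. The spread behind the p-values is that of these libraries, which may be technical. Alternatives were DESeq2 1.42.0, limma-voom 3.58.1, other scalings, filters, depths, a replicate block, length and GC corrections (splines, 5 degrees of freedom), a threshold of 0.01 and each library left out.

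The members and gene lists were chosen with earlier results of these data known. Named genes are the members, up to 4 genes per list with the smallest adjusted p and at least 1 in each called direction, and the 2 nearest genes per member; other genes named were chosen after their values were seen. Some listed genes are counted but not reported singly here. Tables and plots used pandas 2.3.3 and matplotlib 3.10.9 under Python 3.11.15.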

Additional observations from a re-analysis of the deposited data

How the results depend on the processing

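KRT8, KRT18 and KRT10 were called higher under all 17 alternatives, at 0.88 to 1.38, 0.82 to 1.15 and 0.75 to 1.19. KRT19 was higher in all 17 and called in 8. Its value was 0.36 with upper-quartile scaling, 0.20 with library totals alone, 0.39 with a filter of 5 CPM, 0.34 with the length correction, 0.19 with GC and length, and 0.38 to 0.59 with 1 library left out. KRT20 was 2.75 with library totals alone and 2.02 to 8.49 with 1 library left out; the highest leaves a DMSO library at 0 and depends on the prior count. It was not tested with the filter of 5 CPM. KRT80 ran from 0.73 to 1.14 with 1 library left out. At a threshold of 0.01 the calls of KRT19 (0.47), KRT20 (3.01) and KRT80 (0.91) were lost. Library totals alone moved the median of all genes from -0.03 to -0.29. They gave 1951 genes higher and 4934 lower, against 3349 and 3446. A threshold of 0.01 gave 2049 and 1811, and leaving out 1 library 1925 to 3054 and 1939 to 2619, with 1925 and 1939 without DMSO replicate 2 and 2208 lower without 7A replicate 2. Of the other keratins, 3 were higher with the filter of 5 CPM, which tests fewer genes, and 1 was lower with library totals alone and with GC and length. The type I to type II ratio was 1.17 (DMSO) and 0.84 (7A) from counts without length, and 3.25 and 2.26 with merged exon lengths, chosen after seeing the data. With the replicate block, 3029 genes were higher and 3187 lower, and the 6 keratins were called; deviations of same-numbered libraries correlated at -0.05 over 14026 genes, so the numbers were not taken as pairs. It changed no member's call. Signs turned for 3 genes that did not pass: CA2 (-0.069 with the upper quartile, -0.23 with library totals, -0.042 with 5 CPM, -0.11 with the length correction, -0.041 to 0.14 with 1 library left out), PDGFRB (-0.0063 with library totals, -0.054 to 0.69 with 1 library left out) and ITGAM (-0.60 to 0.011 with 1 library left out). The cause of these changes was not tested.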

Other observations

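Of 20 listed genes of epidermal differentiation, 7 had enough counts to be tested and none rose or fell by edgeR; at an unadjusted p under 0.05 there was 1 higher and 1 lower, DESeq2 called none and limma-voom called 1 higher, and 2 were called higher without DMSO replicate 1. KLK7, a protease of the skin barrier, read 14.8 and 10.0 CPM in DMSO cells against 16.97 and 17.6 in 7A cells (0.48 ± 0.21); its edgeR adjusted p was 0.103, and 0.0394 without DMSO replicate 1. TGM1, which crosslinks the cornified envelope, read 1.76 and 2.11 against 1.10 and 1.52 CPM (-0.56 ± 0.31, edgeR adjusted p = 0.166), and CDSN, a corneodesmosome gene, 1.58 and 1.07 against 0.541 and 0.796 CPM (-0.98 ± 0.39, edgeR adjusted p = 0.0726; 0.0341 with library totals alone). SPRR2D, an envelope precursor gene, read 0.117 and 0 CPM in DMSO cells against 0.324 and 0.380 in 7A cells (edgeR adjusted p = 0.0609). It entered the test through the 7A group only and so had to be higher. Its calls with limma-voom and without DMSO replicate 1, which are among those counted above, are a description.

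The KRTAP2 genes, keratin-associated genes of the hair matrix, lie in the type I cluster of chromosome 17. Those below were picked after their values were seen, and other keratin-associated genes are not reported here. KRTAP2-1 and KRTAP2-2 had means of 0.224 and 0.238 CPM with DMSO and 1.39 and 1.27 CPM with 7A, and entered the test through the 7A group only. KRTAP2-4, whose sequence is close to theirs, had means of 0.404 and 2.61 CPM (2.69 ± 0.39, edgeR adjusted p = 0.00196). The related KRTAP2-3 had group means of 3.13 and 26.3 CPM, a rise of 3.07 ± 0.31 (edgeR adjusted p = 0.00113). The split of reads among these copies is uncertain.

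Among the markers of other cells, COL1A1 fell by 0.64 ± 0.14 (edgeR adjusted p = 0.0103; 0.318 with the length correction, 0.0717 without DMSO replicate 1 and 0.0501 without DMSO replicate 2), and VWF by 1.90 ± 0.48 from 0.909 and 0.643 CPM (edgeR adjusted p = 0.0151; 0.063 with DESeq2, and 0.111, 0.0772 and 0.0729 without DMSO replicate 1, 7A replicate 1 and 7A replicate 2). Epithelial markers were higher or did not pass: CLDN7, a tight junction gene, rose by 1.03 ± 0.14 (91.4 to 187 CPM), EPCAM by 0.58 ± 0.12 and the splicing factor gene ESRP2 by 0.83 ± 0.18, while ESRP1 was lower without passing (-0.36 ± 0.13, edgeR adjusted p = 0.0505; called lower in 6 alternatives, with 0.00693 for library totals alone). EPCAM was not called with library totals alone (edgeR adjusted p = 0.0766) or without DMSO replicate 2 (0.0688), and ESRP2 not without DMSO replicate 1 (0.0566) or 7A replicate 2 (0.061).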
